A study of Saccharomyces cerevisiae with 5 samples.

Results

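Glycogen synthesis and breakdown in budding yeast was followed through 10 genes chosen by the function of their products, out of 5656 genes with a probe set of their own on the array. They were GLG1 and GLG2 (initiation), GSY1 and GSY2 (synthesis), GLC3 (branching), UGP1 and PGM2 (supply of the glucose donor), GPH1 and GDB1 (breakdown) and GAC1 (control of the synthase), each with 1 probe set. All samples were of the strain W303 with the genotype PHO4-MYC::TRP1, a tagged copy of the gene for the phosphate-responsive transcription factor Pho4. An untagged strain and a culture with phosphate throughout were not analysed here. Log-phase cells spent 3 h in PNB medium without phosphate and then 80 min at 0, 0.01, 0.1, 1 or 10 mM phosphate, with total RNA from each dose on 1 Affymetrix array. There were no replicates, so a difference between any pair of arrays has no replicate error.

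Glycogen is the branched glucose polymer that yeast stores when growth slows. Its chains start on the self-glucosylating proteins Glg1 and Glg2, are lengthened by glycogen synthase with glucose from UDP-glucose, and are branched by Glc3. Phosphorylase takes them apart by using inorganic phosphate to release glucose 1-phosphate, and the debranching enzyme clears the branch points. Several of these genes carry stress response elements bound by Msn2 and Msn4, and the cyclin-dependent kinase Pho85, which also keeps Pho4 inactive when phosphate is plentiful, phosphorylates glycogen synthase with other cyclins.

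The median signal per array was highest at 0 mM, 25.5, and 37.0 to 42.3% of values per array were below a background level of 11.4, the 40th percentile of all values. Genes with a probe set at or above this level on at least 2 arrays were kept, 4824 in all, and lower values were set to the level before log2 was taken. As a check of the doses, the phosphate-responsive genes PHO84 and PHO5 differed between 0 and 10 mM by 50.04-fold and 58.03-fold, both lower with phosphate. RNA integrity was read from 3' over 5' signal: for ACT1 it was 3.00 at 0.01 mM and 1.11 at 0.1 mM, and between 2.02 and 2.37 on the other arrays, and for TBP it was 4.52 at 0.01 mM, 2.01 at 0.1 mM and 1.51 to 2.63 on the others. Poly-A spike-in controls (geometric mean of 15 probe sets) had signals of 48.7, 32.7, 13.4, 10.4 and 9.92 from 0 to 10 mM. At 1 and 10 mM this mean lay below the background level of 11.4, and for scaling it was used as it stood, without that level as a floor. The largest steps described below lie between the arrays of 0.01 and 0.1 mM, where these controls also differ. Values with arrays at equal spike-in signal are given below, a scaling that shifts each array by the same amount for all genes. The part of the controls in the results was not tested.

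Of the 10 genes 7 were kept, and GSY1, GLG2 and GAC1 were not. In a straight line fitted to log2 signal on dose order (limma over all 4824 genes, Benjamini-Hochberg adjustment at 0.05), GLC3, GPH1, PGM2, GSY2 and GDB1 fell with dose, GLG1 and UGP1 did not pass, and 0 rose (0 also at an unadjusted p of 0.05). Over all genes kept 8.13% fell and 1.16% rose. The adjusted p-values of the 5 genes lay between 0.0395 and 0.0438, close to the threshold, and 0 of the 7 passed in limma with arrays scaled to 1 common median, although 5 were lower at an unadjusted p of 0.05, as were 13.9% of all genes. None passed without the array of 0 mM, of 0.01 mM or of 1 mM either. There 2, 5 and 5 were lower at an unadjusted p of 0.05, against 9.1%, 21.9% and 15.4% of all genes. Over all genes too, 0 passed at 1 median or without any of these arrays, so this loss is not particular to glycogen genes. With all arrays 6 of the 7 were lower at that p, against 23.7% of all genes. GSY2, GLC3, GPH1 and GLG1 were kept through their signals at the lowest doses, so the count of genes that fell is a description of the genes kept and not of all 10.

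**Figure D1:**
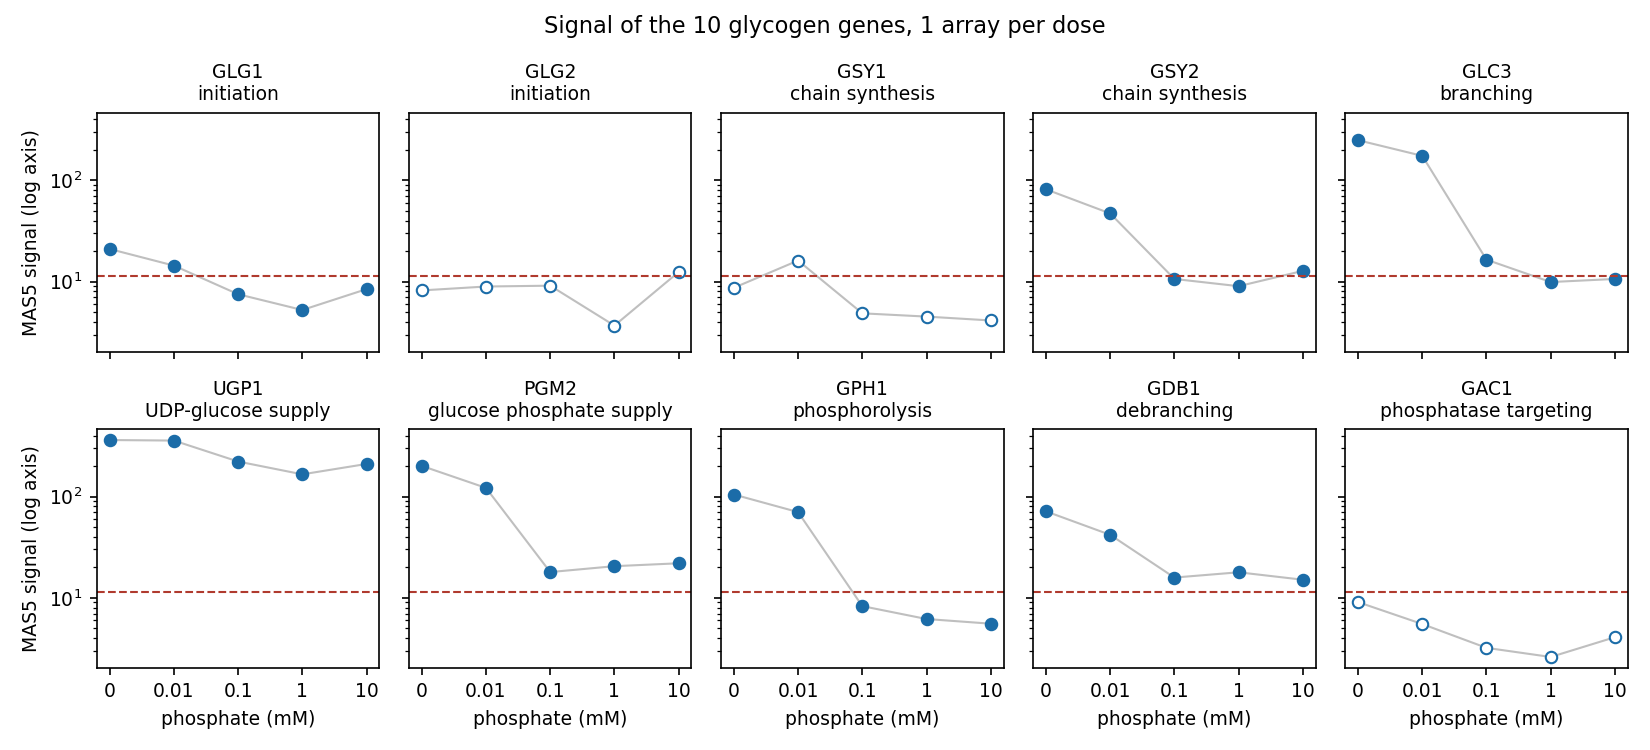
MAS5 signal (log axis) of each of the 10 glycogen genes against phosphate dose, 1 point per array; filled points are genes kept, open points genes not kept, and the dashed line is the background level of 11.4. GLC3, GPH1, PGM2, GSY2 and GDB1 are high at 0 and 0.01 mM and low from 0.1 mM on, while UGP1 stays above background at every dose.

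Initiation genes were dim. GLG1 had signals of 21.0, 14.4, 7.51, 5.25 and 8.43 from 0 to 10 mM, above background at the lowest pair of doses and below it at the others. Between the end doses it was at least 1.84-fold lower. The slope of GLG1 was -0.21 ± 0.09 (log2 per dose step, SE, 5 arrays) and did not pass (limma, Benjamini-Hochberg adjusted p = 0.166). With arrays at equal spike-in signal it was 0.42. That scaling was applied after low values were set to background and shifted those values too, so 0.42 is not a measured rise. GLG2 had signals of 8.19, 8.95, 9.12, 3.68 and 12.4 and exceeded background at 10 mM alone, so no fold is given.

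Of the synthase genes, GSY2, which encodes the isoform that predominates in resting cells, had signals of 81.6, 47.1, 10.6, 9.02 and 12.8. The array of 0 mM was the highest, 0.01 mM came next, and the other 3 lay around the background level. Between the end doses GSY2 differed 6.39-fold, and its slope was -0.74 ± 0.17 (log2 per dose step, SE; limma adjusted p = 0.0430), with 4.12-fold of the drop, to the background level, between 0.01 and 0.1 mM. GSY1 had signals of 8.70, 16.15, 4.87, 4.52 and 4.14, above background at 0.01 mM alone. Whether the synthase genes differ in their response to phosphate could therefore not be measured.

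GLC3, for the branching enzyme, which makes the polymer compact and soluble, fell with dose. Its signals were 249, 175, 16.5, 9.91 and 10.6, high at 0 and 0.01 mM, near background at 0.1 mM and below it at 1 and 10 mM. At 10 mM it was at least 21.8-fold below its value at 0 mM. The slope was -1.28 ± 0.22 (log2 per dose step, SE; limma adjusted p = 0.0395), and the drop from 0.01 to 0.1 mM was 10.6-fold against 1.43-fold from 0 to 0.01 mM. GLC3 was the 1 glycogen gene that still passed as lower with arrays at equal spike-in signal (adjusted p = 0.00467).

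The genes that supply UDP-glucose parted. PGM2 encodes the main phosphoglucomutase, which converts glucose 6-phosphate and glucose 1-phosphate into each other and so serves both synthesis and breakdown. It had signals of 201, 122, 18.0, 20.5 and 21.9, low but above background at the 3 higher doses. PGM2 differed 9.15-fold between the end doses, with a slope of -0.90 ± 0.21 (log2 per dose step, SE; limma adjusted p = 0.0438). UGP1, for the pyrophosphorylase that makes UDP-glucose for glycogen, trehalose and the cell wall, had signals of 361, 357, 222, 166 and 209.7. Signals were close at 0 and 0.01 mM, lowest at 1 mM and above background throughout. Between the end doses UGP1 differed 1.72-fold, and its slope of -0.27 ± 0.10 did not pass (limma adjusted p = 0.116) and turned to 0.36 with arrays at equal spike-in signal. That difference between PGM2 and UGP1 was not tested.

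Both breakdown genes fell under the deposited scaling. GPH1, for glycogen phosphorylase, had signals of 105, 70.2, 8.28, 6.18 and 5.56, above background at 0 and 0.01 mM only. The end doses differed at least 9.16-fold, with a slope of -0.90 ± 0.19 (log2 per dose step, SE; limma adjusted p = 0.0400). GDB1, for the debranching enzyme, had signals of 71.4, 41.9, 15.8, 17.9 and 15.1, and all 5 were above background. GDB1 fell by 2.24 on the log2 scale from 0 to 10 mM, or 4.73-fold, with a slope of -0.57 ± 0.13 (limma adjusted p = 0.0415), which turned to 0.05 with arrays at equal spike-in signal. Genes for branching, synthesis and breakdown were thus lower together at the higher doses, in RNA; glycogen itself and enzyme activity were not measured.

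GAC1, which encodes a subunit that brings the phosphatase Glc7 to glycogen synthase, had signals of 9.07, 5.51, 3.21, 2.61 and 4.09. All lay below background, so neither a fold nor a direction is given. With the filter on dim genes left out, GSY1, GLG2 and GAC1 had slopes of -0.05, 0.02 and 0.00 at the background floor. None of the 10 genes passed (limma adjusted p of 0.182 or above over 5656 genes), while 7 were lower at an unadjusted p of 0.05. Over all genes 1 passed, and 1366 had an unadjusted p below 0.05 in limma in either direction.

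**Figure D2:**
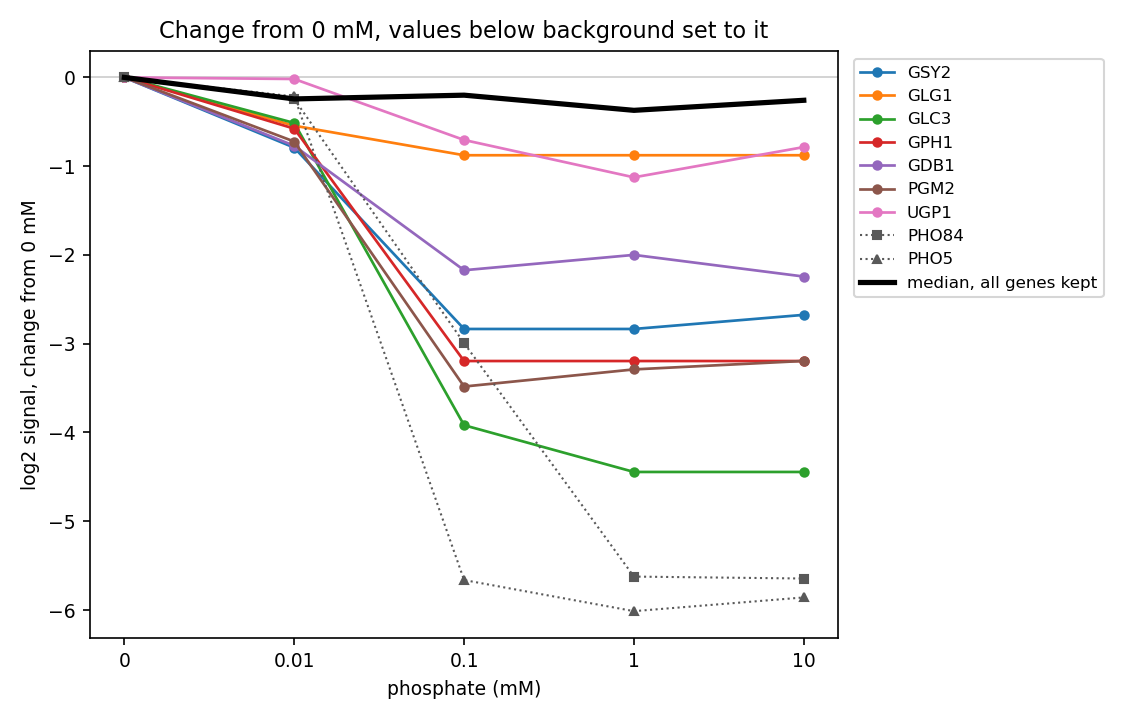
Change in log2 signal from 0 mM against phosphate dose for the 7 glycogen genes kept, PHO84, PHO5 and the median of all 4824 genes, with values below background set to it; each point is 1 array. GLC3, GPH1, PGM2, GSY2 and GDB1 drop mostly between 0.01 and 0.1 mM and change by less than 2-fold after it, whereas PHO84 drops again between 0.1 and 1 mM.

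The step at which signals dropped was much the same for these genes. From 0 to 0.01 mM all 7 genes kept were lower, by 0.02 to 0.79 on the log2 scale, as were 69.5% of all genes, and 0 were at least 2-fold lower, against 6.84%. From 0.01 to 0.1 mM all 7 were lower, as were 48.2% of all genes, and 5 were at least 2-fold lower, against 12.3% of all genes. The median difference of the 7 was -2.04 (log2) at this step and that of all genes 0.01. With low values set to background it was the largest step for 6 of the 7, as it was for 50.6% of all genes. For GLG1 the largest step could not be told, since its signals of 21.0 and 14.4 at 0 and 0.01 mM were followed by 7.51, below background. At higher doses 0 of the 7 were at least 2-fold lower, from 0.1 to 1 mM (1.24% of all genes) or from 1 to 10 mM (0.808%), and 3 lay at the floor on both sides of each of these steps.

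How much of the drop was reached by 0.1 mM could be measured for the 3 genes above background at every dose. The log2 difference between 0.1 and 0 mM was 89.8% of that between 10 and 0 mM for UGP1, 96.8% for GDB1 and 109.0% for PGM2. For GLC3 it was at most 88.2%, since its signal at 10 mM lay below background. GSY2, GPH1 and GLG1 were already below background at 0.1 mM, so no share is given. The share was 96.7% for PHO5, a secreted acid phosphatase gene, and 53.0% for PHO84, the high-affinity phosphate transporter gene, which had a further 6.19-fold drop between 0.1 and 1 mM. These shares come from single arrays and their difference was not tested.

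Between the ends of the dose range the median of the 7 genes was -2.68 (log2, 10 mM minus 0 mM) and that of all genes -0.26, so the median relative to all genes was -2.42. Of the 7, 5 were at least 2-fold lower at 10 mM, against 21.2% of all genes, and 0 were at least 2-fold higher, against 7.52%. All 7 were lower at 10 mM, as were 62.2% of all genes. Scaling arrays to 1 median put the median of all genes at 0.18, and equal spike-in signal put it at 2.04. Relative to the median of all genes, the 7 genes stood at -2.39 with arrays at 1 median and at -2.38 after quantile normalization. With background at the 20th and 60th percentiles this value was -1.50 (10 genes kept) and -1.27 (6 genes kept). It was -1.73 with a pseudocount in place of the floor, -1.45 without the filter on dim genes (10 genes) and -2.67 with a filter on mean signal (6 genes). Spike-in scaling shifts all genes alike and cannot change this value. At equal spike-in signal the median of the 7 genes themselves was -0.38 and 1 gene, GLC3, was at least 2-fold lower. For genes with a pair of probe sets, 120 in all, the differences between 10 and 0 mM of the pair differed with an SD of 0.87 (log2). This SD holds the error of both probe sets of a pair on the same arrays, and no error between arrays or cultures.

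**Figure D3:**
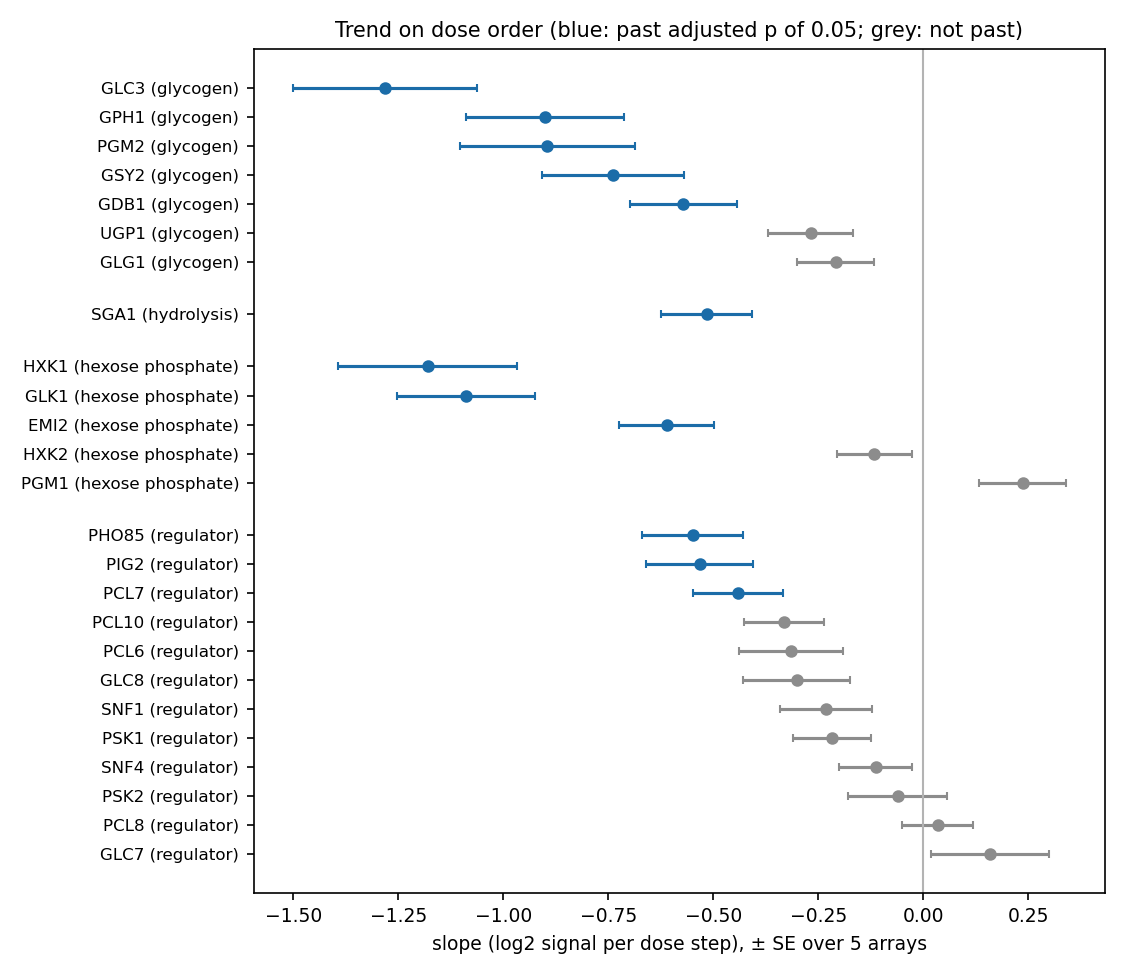
Slope of log2 signal per dose step with its SE (limma, 5 arrays) for the glycogen genes kept, the hydrolase gene SGA1, genes of hexose phosphate supply and regulators; blue points passed the adjusted p of 0.05 and grey points did not. Slopes of glycogen genes run from -1.28 for GLC3 to -0.21 for GLG1, and those of regulators from -0.55 for PHO85 to 0.16 for GLC7.

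Among regulators of glycogen synthase and phosphorylase, 12 of 14 genes were kept. Of these 3 fell, 0 rose and 9 did not pass, whereas over all genes 8.13% fell and 1.16% rose. At an unadjusted p of 0.05 in limma 6 were lower and 0 higher, against 23.7% lower of all genes. The median difference of the 12 regulators was -0.90 (log2, 10 mM minus 0 mM), against -0.26 for all genes. Glc7 is the catalytic subunit of the phosphatase that activates glycogen synthase, and its gene did not pass; over its probe sets the mean signal was lowest at 0.01 mM, at 28.85, and highest at 0.1 mM, at 86.2. Among its partners, PIG2, for a putative targeting subunit, had signals of 48.0, 25.98, 7.29, 2.95 and 6.38, a fall of at least 4.20-fold between the end doses (limma adjusted p = 0.0448), while its slope of -0.53 turned to 0.09 with arrays at equal spike-in signal. PIG2 too was kept through its signals at 0 and 0.01 mM, and its other values were set to background before the spike-in scaling. PIG1 and GIP2 were below background at every dose, and GLC8, a regulator of Glc7, had signals of 107 and 53.4 at the ends and did not pass.

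Kinases that act on glycogen enzymes gave mixed results. PHO85 had signals of 169, 181, 59.5, 55.1 and 45.6, with the drop between 0.01 and 0.1 mM, and fell with a slope of -0.55 ± 0.12 (log2 per dose step, SE; limma adjusted p = 0.0415), which turned to 0.08 with arrays at equal spike-in signal. Pcl8 and Pcl10 are the cyclins with which Pho85 phosphorylates glycogen synthase. PCL10 was highest at 0 mM, with signals of 33.7, 17.9, 16.9, 13.8 and 12.1, and did not pass (limma adjusted p = 0.0625). PCL8 had signals between 18.1 and 22.0 over all doses and a slope of 0.03 ± 0.08 (limma adjusted p = 0.803). Pcl6 and Pcl7 direct the kinase to Glc8. PCL7 fell, with signals of 86.2, 35.3, 38.5, 27.6 and 21.1, so its largest step lay between 0 and 0.01 mM, and its slope of -0.44 turned to 0.18 with arrays at equal spike-in signal. PCL6 was highest at 0.01 mM, at 32.6, and did not pass. The PAS kinase genes PSK1 and PSK2, whose products phosphorylate Ugp1, and SNF1 and SNF4, for the energy-sensing kinase that favours glycogen storage, did not pass (limma adjusted p = 0.156, 0.745, 0.188 and 0.400).

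In the supply of hexose phosphates, 3 of 5 genes fell and 0 rose (0 also at an unadjusted p of 0.05). Over all genes kept 8.13% fell and 1.16% rose. HXK1, for the hexokinase made in poor carbon conditions, had signals of 280.0, 201, 20.5, 17.5 and 15.9 and was 17.6-fold lower at 10 mM (limma adjusted p = 0.0395). The glucokinase gene GLK1 had signals of 759, 674, 123, 59.5 and 58.6 and was 12.9-fold lower. Its paralog EMI2 was 4.59-fold lower, with a slope of -0.61 that turned to 0.01 with arrays at equal spike-in signal. HXK2, for the hexokinase that predominates in glucose, had signals of 565 and 394 at the ends and did not pass (limma adjusted p = 0.401). SGA1, for a glucoamylase known from sporulating cells, had 1 of its 2 probe sets kept, with signals of 103.5, 87.0, 34.5, 34.7 and 27.5. It fell with a slope of -0.52 ± 0.11 (limma adjusted p = 0.0403), which turned to 0.11 with arrays at equal spike-in signal. Averaged over both probe sets, with the filter on dim probe sets left out, the slope was -0.34.

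Of 7 pairs of duplicate genes listed from glycogen enzymes and regulators, 3 had both genes kept; other duplicates in the lists, such as HXK1 and HXK2, were not among these pairs. PGM1, for the minor phosphoglucomutase, had signals of 63.9, 84.3, 129, 89.1 and 141, lowest where PGM2 was highest. It did not pass (slope 0.24 ± 0.10, limma adjusted p = 0.162), and its log2 difference between 10 and 0 mM exceeded that of PGM2 by 4.34. The difference of PCL8 exceeded that of PCL10 by 1.56, and that of PCL6 exceeded that of PCL7 by at most 1.203. The latter is an upper limit, since PCL6 was below background at 10 mM. These values have no replicate error and were not tested. In the pairs GSY1 and GSY2, GLG1 and GLG2, GAC1 and PIG1, and PIG2 and GIP2, at least 1 gene was not kept.

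**Figure D4:**
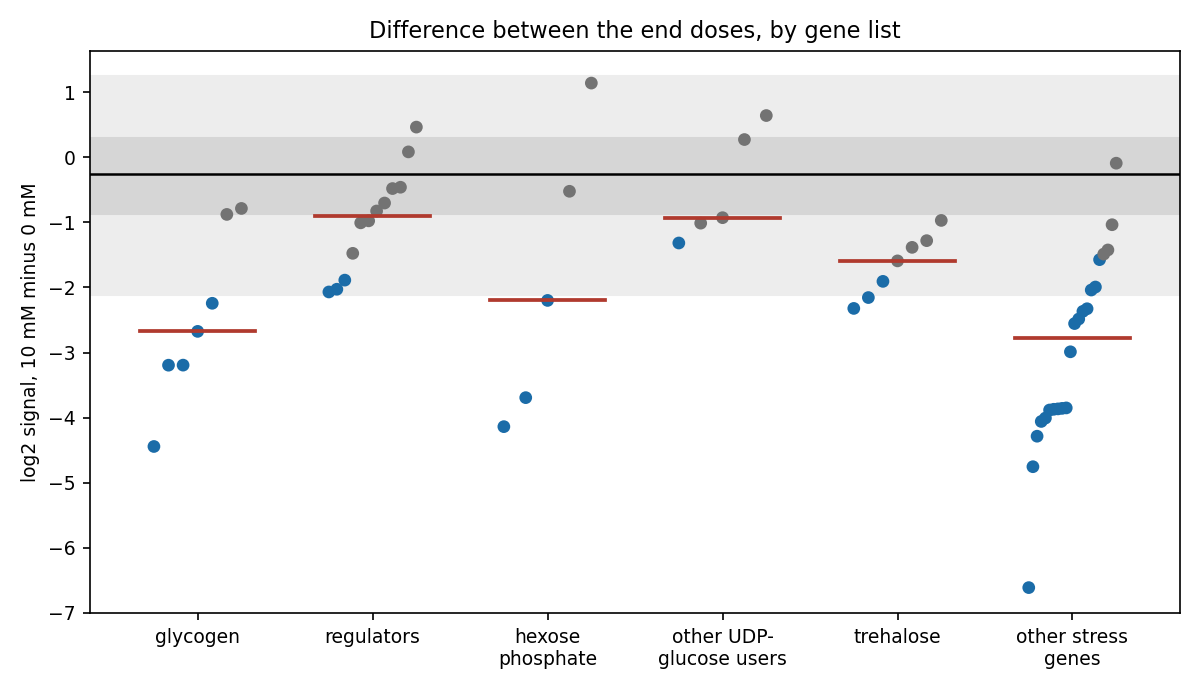
Difference in log2 signal between 10 and 0 mM (1 array each) of each gene kept, by list; blue points fell in the trend test, grey points did not pass, and red lines are list medians. The black line is the median of all 4824 genes, and the shaded bands hold the middle 50% and 90% of them; 5 of the 7 glycogen genes lie below the wider band.

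The glycogen genes were compared with the lists nearest to them in function. Trehalose, the other storage carbohydrate, is also made from UDP-glucose and glucose 6-phosphate. All 7 of its genes were kept; 3 fell, 0 rose and 4 did not pass (7 were lower and 0 higher at an unadjusted p of 0.05; over all genes 8.13% fell and 23.7% were lower at that p), with a median difference of -1.59 (log2, 10 mM minus 0 mM). TPS1, for trehalose 6-phosphate synthase, was 5.001-fold lower, and TSL1, for a subunit of the same complex, at least 4.46-fold lower. Of 22 other stress genes under Msn2 and Msn4, 18 fell, 0 rose and 4 did not pass (20 lower and 0 higher at an unadjusted p of 0.05), with a median of -2.77; the small heat shock protein gene HSP26 was at least 98.0-fold and the Hsp70 gene SSA4 27.0-fold lower. Of the genes that fell, 1 for trehalose (TSL1) and 4 of the stress list were kept only through their signals at 0 and 0.01 mM. The medians of the glycogen and the stress genes were -2.68 and -2.77, and the differences among the 3 lists were not tested. With arrays scaled to 1 median 0 of all genes passed in limma, and so 0 of the glycogen, trehalose and stress lists.

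The genes outside all lists whose profile lay nearest to the median of the 7 glycogen genes were YJR096W, PDE1, SDT1, SEG1 and CMI8. Likeness was the root mean square distance between changes in log2 signal from 0 mM over 4 doses. It was 0.13 to 0.18 for these 5 genes, whereas the median over genes outside the lists was 2.20. The glycogen genes themselves lay between 0.11 (GSY2) and 1.68 (UGP1) from their median. At 0.1 and 1 mM this median was the value of GSY2, whose signal had been set to background, so the small distance of GSY2 follows in part. SEG1 lay at the background level at 0.1, 1 and 10 mM, so its likeness rests in part on that floor. PDE1 encodes the low-affinity phosphodiesterase of cyclic AMP, SEG1 a component of eisosomes and SDT1 a nucleotidase. Their folds follow from this choice and are not a result.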

How the data were processed

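The authors deposited 1 intensity value per probe set and array, linear and never negative. MAS5 made them, per the submitters' processing notes; no version or scaling target is given in the sources used here. Of 9335 probe sets, 6504 had 1 gene in the platform annotation, all matched to RefSeq R64; 328 had several and 2503 were not listed, and those were not named. Log2 was taken after setting values below 11.4 to that level, and the probe sets kept were averaged per gene. A gene below the level at 1 end of the doses has a fold given as at least.

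Trends were fitted with limma 3.58.1 in R 4.3.3 (3 residual degrees of freedom, 7.64 after moderation). Scatter around the line is the error, so a step counts in part as error. On simulated data for 4824 genes, 50 were changed per size and shape. Falls along a line of 2 and 4 (log2) were recovered in 18% and 100%. Steps of these sizes after 0.01 mM were recovered in 6% and 10%, and false calls numbered 5. The Benjamini-Hochberg adjustment is stricter where fewer genes change, and 448 genes passed in the data. These rates therefore hold for the simulated share of changed genes. They do not measure how many falls the test found or missed in the data. Whether cultures were grown in parallel is not stated; p-values measure the scatter of these arrays, whose number limits the precision.

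The genes, lists and tests were chosen with earlier results of these data known. Named were all 10 genes, the regulators, hexose phosphate and hydrolysis genes, the 2 largest differences of each other list, PHO84, PHO5 and the 5 nearest profiles. Alternatives were other scalings, background levels, filters, dose scales, a pseudocount of 11.4, arrays left out and a variance trend; scaling to spike-in or hybridisation controls was chosen after seeing the data. The planned search of promoters was not run.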

Additional observations from a re-analysis of the deposited data

How the results depend on the processing

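Most calls did not hold: of 80 slopes of the 5 glycogen genes that fell, under 16 alternatives, 36 kept the call, 43 lost it and 1 turned. The count of these genes that fell, 5, was 0 with arrays at 1 median, after quantile normalization, with background at the 60th percentile, without the filter on dim probe sets, and for doses up to 0.1 mM against 1 and 10 mM. In limma 5 of 7, 5 of 7, 6 of 6, 7 of 10 and 1 of 7 glycogen genes tested were lower at an unadjusted p of 0.05 in these settings. At equal spike-in signal 1 fell, and leaving out arrays gave 0 to 5. Genes of related lists that fell numbered 29, 0 in the same 5 settings (33, 33, 32, 36 and 13 lower at an unadjusted p of 0.05), 10 at equal spike-in signal and 0 to 33 with arrays left out. Over all genes 448 passed (392 lower and 56 higher), against 0, 4, 0, 1 and 0 in the 5 settings. There 1644 of 4807, 1654 of 4812, 1127 of 3424, 1366 of 5656 and 373 of 4824 genes had an unadjusted p below 0.05 in limma, in either direction. At 1 median 13.9% of all genes were lower at that p. After adjustment 4005 passed at equal spike-in signal (49 lower and 3956 higher), 884 at equal hybridisation controls (655 and 229) and 0 to 950 with arrays left out. The 0 arose without the array of 0, 0.01 or 1 mM. Why calls were lost was not tested; log10 dose, with 0 mM at 0.001 mM, spaces the doses as dose order does and gave the same counts.

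The median difference of the glycogen genes, -2.68, was -2.21 at 1 median, -2.29 after quantile normalization, -1.78 and -1.45 with background at the 20th and 60th percentiles, -1.94 with a pseudocount, -1.56 without the filter (all 10 genes), -0.38 at equal spike-in signal and -2.04 for 1 minus 0.01 mM. Its value from 0.01 to 0.1 mM, -2.04, was -1.57, -0.87, -1.41, -1.04 and -0.76 with the 20th and 60th percentiles, the pseudocount, no filter and spike-in scaling. Genes at least 2-fold lower were 8 of 10 at the 20th percentile and 1 at spike-in scaling. The pair difference of PGM1 and PGM2 was 3.72 at the 60th percentile and 3.69 with a pseudocount, that of PCL8 and PCL10 0.99 with a pseudocount, and that of PCL6 and PCL7 0.84 at the 20th percentile.

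Directions turned mainly at equal spike-in signal. This scaling adds the same amount to the slope of every gene, and 3956 of all 4824 genes passed there as higher. It was applied after low values were set to background, so values at that level moved with it. The turned slopes and higher calls therefore follow from the shift and are not a result about single genes. Slopes there were 0.42 for GLG1 and 0.36 for UGP1 (adjusted p = 0.0157 and 0.0285), 0.054 for GDB1, 0.093 for PIG2, 0.32 for GLC8, 0.29 for PCL10, 0.31 for PCL6, 0.18 for PCL7, 0.076 for PHO85, 0.41 for PSK1, 0.56 for PSK2, 0.39 for SNF1, 0.51 for SNF4, 0.51 for HXK2, 0.014 for EMI2 and 0.11 for SGA1. Past the threshold as higher there were GLG1, UGP1, GLC8, PSK1, PSK2, SNF1, SNF4 and HXK2, and also GLC7, PCL8 and PGM1, whose slopes were positive before. The differences between 10 and 0 mM were 1.42 for GLG1, 0.052 for GDB1 and 1.51 for UGP1, and the median of all genes was 2.04. At 1 median the slopes of PSK2, SNF4 and HXK2 were 0.061, 0.0088 and 0.0052 and the median of all genes 0.18; after quantile normalization the slope of PSK2 was 0.066 and the median of all genes 0.088. PSK2 had 0.16 for doses up to 0.1 mM against higher ones and from -0.15 to 0.14 with arrays left out. No paired analysis was possible because each dose had 1 array. The search for promoter motifs was not run, since no promoter sequences were used here. Dim signals limit GSY1, GLG2, GAC1 and GLG1.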

Other observations

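UDP-glucose is also drawn on by the cell wall, by lipid-linked glycans and by sterol glucosides, and 5 genes of these uses were kept. ATG26, for sterol glucosyltransferase, had signals of 40.7, 34.1, 20.7, 14.6 and 16.3 from 0 to 10 mM and fell with dose (2.49-fold lower at 10 mM, limma adjusted p = 0.0491 after Benjamini-Hochberg adjustment). The other 4 did not pass, and over all genes kept 8.13% fell. GSC2, for the glucan synthase subunit made in starved and stressed cells, was 2.02-fold lower at 10 mM, with mean signals of 60.2, 30.1, 49.6, 22.8 and 29.9 over 3 of its probe sets. The median difference of the 5 genes was -0.93 (log2, 10 mM minus 0 mM), against -0.26 for all genes.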
